A study of Canis lupus familiaris with 6 samples.

Results

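Cadherins are calcium-dependent adhesion receptors. At the adherens junction, the cytoplasmic tail of E-cadherin binds β-catenin or plakoglobin, α-catenin links these to actin, and nectins with afadin form a second, calcium-independent adhesion system beside them. Desmosomes are built from their own cadherins, the desmogleins and desmocollins, which plakoglobin, plakophilins and desmoplakin tie to keratin filaments. β-catenin also carries the canonical Wnt signal to the nucleus, where it works with TCF/LEF factors. In kidney epithelia these complexes hold neighbouring cells together and set the apical and basal sides. The genes of these complexes were followed in MDCK cells, a dog kidney epithelial line, in which every group carried a constitutively expressed, stabilised β-catenin that lacks its first 131 residues (mCherry-β-catenin Δ131, here β-cat ΔN).

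The array held 93 probes for 50 such genes, of 43603 non-control probes in all. A probe was taken by its gene name on the array design. The names were CDH or PCDH with a number, DSG, DSC or PKP with a number, or began with CTNN. DSP, JUP, PERP, PVRL1 to PVRL4 and MLLT4 were also taken. This rule reads gene names alone, but it and the pathway lists below were chosen with earlier results of these data known. Shares of these genes set against all probes therefore do not come from a blind choice. Single culture (n = 3 arrays) was the line that combines MDCK-pTR GFP-RasV12 with mCherry-β-catenin Δ131, grown alone. Mix culture (n = 3 arrays) was the same cells, β-cat ΔN/RasV12 cells, plated with 10 surrounding MDCK mCherry-β-catenin Δ131 cells for every 1 of them. Both groups were kept on collagen-coated dishes, received tetracycline for 24 h to switch on the constitutively active RasV12 fused to GFP, were detached with Accutase and were sorted for GFP before RNA was extracted. GFP marks the RasV12 cells of both cultures, so the comparison asks which of their junction transcripts differ once β-cat ΔN cells lie around them. The array's probe for HRAS, a Ras gene, gave a normalised log2 signal (log2 intensity minus the 75th percentile of the array) of 5.97, 6.82 and 6.45 in single culture and 5.5, 5.68 and 6.20 in mix culture. Its mean was lower in mix culture by -0.62 and the groups overlapped (limma adjusted p = 0.065 with the slide as a block and 0.608 without), with -0.47 on slide 1 and -0.70 on slide 2. Whether this probe reads the introduced RasV12 was not analysed here, and the part of this shift in the junction values was not tested. The introduced β-catenin was driven by a constitutive EF1 promoter in drug-selected cells, and all probes read transcripts, not the proteins at the junction. The labels do not say whether replicates were separate cultures, so p-values measure only the spread between these arrays, which may be technical.

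Both groups were split over 2 slides, with replicate 1 on slide 1 and replicates 2 and 3 on slide 2. By the file headers, slide 1 was scanned at 3 µm per pixel and slide 2 at 5 µm, with different versions of the extraction software. Differences between slides cannot be told apart from these settings. With the groups in the model, 24 of 58 tested junction probes (41.4%) differed between slides, against 47.2% of all tested probes. Values are therefore given with and without the slide as a block. In the value table of the authors, mix culture replicates 2 and 3 each matched the scanner file of the other (correlations over 26623 probes of 0.999 and 0.993, against 0.457 and 0.459 with their own). Which naming is right cannot be told from the files. The group means and the slide block do not depend on it, while the pairing by number and every value given for mix culture replicate 2 or 3 follow the labels of the scanner files. Each array had 61.1% to 65.7% of its spots above background. Of 11 epithelial marker genes with a probe, 10 were well above background, among them EPCAM, KRT18, KRT19, OCLN, CLDN7 and PAX8, while GRHL2 was not well above it on any array. Of the marker genes of other cell types with a probe, 5 of 10 for fibroblasts, 3 of 5 for endothelium and 5 of 7 for leukocytes were tested, and none was called with or without the slide block. Among the fibroblast markers, COL3A1, DCN, PDGFRA and CDH11 were not well above background on any array, while VIM, COL1A2 (102 to 312 intensity units), PDGFRB and FAP were on all 6. TEK of the endothelial list was above it on no array, and VWF (742 to 3183 intensity units), PECAM1 and KDR were on all 6. PTPRC, which marks all leukocytes, was above it on no array, and CD68 (177 to 253 intensity units), CD14, CD3E and CD79A were on all 6.

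The probes on which the results turn are 60-base DNA oligonucleotides in the array design. Their sequences are shown for CDH1, CDH2, PKP4, PCDH7, DSP and PVRL1, which carried the calls or the steepest changes, and for CTNNB1, the gene of the introduced protein. Positions are those of the design on CanFam3.1. Whether a probe lies in coding or untranslated sequence was not analysed here, and no base is capitalised because none was singled out.
CDH1 A_11_P053126 (chr5:80784502-80784561, minus strand): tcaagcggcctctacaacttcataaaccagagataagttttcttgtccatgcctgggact
CDH2 A_11_P100091 (chr7:60766532-60766591, plus strand): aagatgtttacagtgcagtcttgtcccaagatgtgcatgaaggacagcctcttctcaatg
CDH2 A_11_P190553 (chr7:60915486-60915545, plus strand): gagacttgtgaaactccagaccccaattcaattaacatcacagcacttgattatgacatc
PKP4 A_11_P177253 (chr36:4528858-4528917, plus strand): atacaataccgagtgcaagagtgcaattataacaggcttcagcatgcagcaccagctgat
PKP4 A_11_P176228 (chr36:4568354-4568534, plus strand): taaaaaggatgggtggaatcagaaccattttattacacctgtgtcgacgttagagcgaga
PKP4 A_11_P0000023868 (chr36:4574825-4574884, plus strand): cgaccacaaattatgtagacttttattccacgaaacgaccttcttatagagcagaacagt
PCDH7 A_11_P109871 (chr3:80385710-80385769, minus strand): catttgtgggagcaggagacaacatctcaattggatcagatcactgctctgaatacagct
DSP A_11_P056201 (chr35:7523977-7524036, plus strand): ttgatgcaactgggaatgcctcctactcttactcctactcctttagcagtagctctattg
PVRL1 A_11_P0000032567 (chr5:14289012-14289071, plus strand): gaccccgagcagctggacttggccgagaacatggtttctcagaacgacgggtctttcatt
CTNNB1 A_11_P195993 (chr23:10561492-10562693, plus strand): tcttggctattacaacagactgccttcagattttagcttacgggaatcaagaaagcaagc
The positions of PKP4 A_11_P176228 and of CTNNB1 A_11_P195993 span more genome (181 and 1202 bases) than the 60 bases of the probe, so these match the transcript in separate pieces of the genome. The other 8 are contiguous.

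The share of junction probes that were detected lay near that of the whole array. Of the 93 probes, 57 (61.3%) were well above background on all 6 arrays, against 58.7% of all probes, and 28 (30.1%) on no array, against 32.3%. After the filter, which asks that a probe clears background throughout 1 group or both, 58 probes (62.4%, against 61.1% of all) of 31 genes were tested. All 6 plakoglobin probes, all 5 probes of the catenin-like genes CTNNAL1 and CTNNBL1 and 9 of 11 probes for the desmosomal plaque and PERP passed. Only 3 of 13 protocadherin probes and 4 of 13 type II cadherin probes did. CDH6, CTNND1 and PVRL3 were not analysed here.

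**Figure D1:**
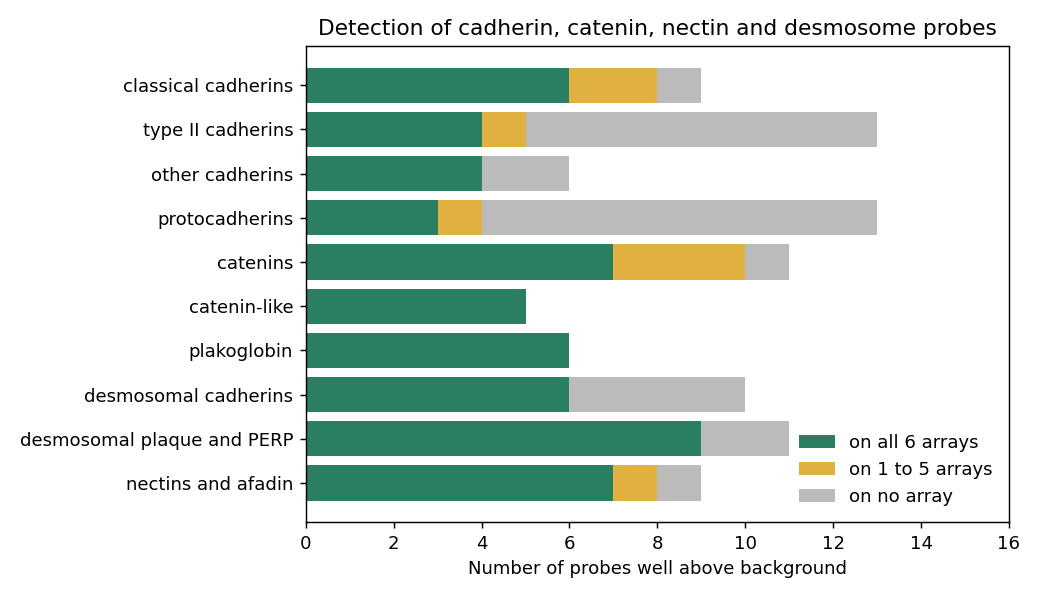
Number of probes per role (horizontal axis) that were well above background on all 6 arrays, on 1 to 5 arrays or on none. Of 13 type II cadherin and 13 protocadherin probes, 8 and 9 were not above background on any array, while all 6 plakoglobin probes were above it on every array.

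The 19 genes with no tested probe included CDH15, the muscle cadherin, and CDH8, CDH9, CDH12, CDH19 and CDH20, mainly neural type II cadherins, none of them above background on any array. CDH11, a mesenchymal cadherin, was below that limit with both probes, and CDH5, the endothelial cadherin, was above it on 1 mix culture array with 1 of 2 probes. The genes of the epidermal desmosome DSG1, DSG4, DSC1 and PKP1 were not above background on any array, and neither was PVRL4, which encodes nectin-4. CTNNA3, the heart and testis α-catenin, was also not above it on any array, and CTNND2, a neural relative of p120-catenin, was above it on 1 to 4 arrays with its 3 probes. Tested probes were found for CDH2, CDH4, CDH7, CDH10, DSG3 and DSC3, which are also known mainly from nerve or stratified epithelia. The desmosomal cadherin genes lie together on chromosome 7, where the design places probes from DSG2 (start 57984436) through DSG3, DSG4, DSG1, DSC1 and DSC2 to DSC3 (start 58457606). Within this cluster, DSG2, DSG3, DSC2 and DSC3 were detected on all arrays and the other 3 genes on none.

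Without a block, limma called none of the 58 tested probes at an adjusted p under 0.05, where 0.883% of all 26623 tested probes were called. The lowest limma adjusted p of the 58 was 0.142. The unpaired test that the methods name also called none of them, where 0.03% of all probes were called. With the slide as a block, 10 probes (17.2%) of 5 genes were called, 5 higher and 5 lower in mix culture, where 7.2% of all probes were called (3.98% higher, 3.22% lower). With the replicate number as a block, 5 were called, 4 higher and 1 lower, where 5.25% of all probes were called (3.23% higher, 2.02% lower). With the slide block the higher genes were PKP4 and PCDH7, and the lower genes were CDH1, DSP and PVRL1. Of these, CDH1, DSP and the PKP4 probe A_11_P176228 were not called with the replicate block. On the authors' value table, limma without a block called 16 junction probes (27.6%), where 15.3% of all probes were called. In that table the values of each probe sum to 0 over slide 1. Over slide 2 their sum is near 0 for most probes (median absolute sum 0.08, largest 5.12). Slide means are thus largely taken out, a step that a fit without a block does not count. With the slide block it gave 9 (15.5%), where 6.86% of all probes were called. The 16 included all 10 probes called with the slide block on the scanner values, a second PVRL1 probe and 1 probe each of PKP2, PVRL2, CDH17, CTNNAL1 and CTNNA1. Calls given for single genes are those on the scanner values unless that table is named.

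Over all 58 probes the median log2 change, mix culture minus single culture, was -0.203, against -0.0511 for all tested probes. Mix culture had the lower mean for 39 of 58 probes (67.2%), against 58% of all. The groups did not overlap for 16 probes (27.6%), 7 higher and 9 lower, where 16.5% of all tested probes did not overlap (7.85% higher, 8.66% lower). Slide 1 and slide 2 gave the same sign for 49 probes (84.5%), against 70.7% of all. No junction probe had a change that differed between slides after adjustment over all probes (lowest limma adjusted p = 0.365).

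**Figure D2:**
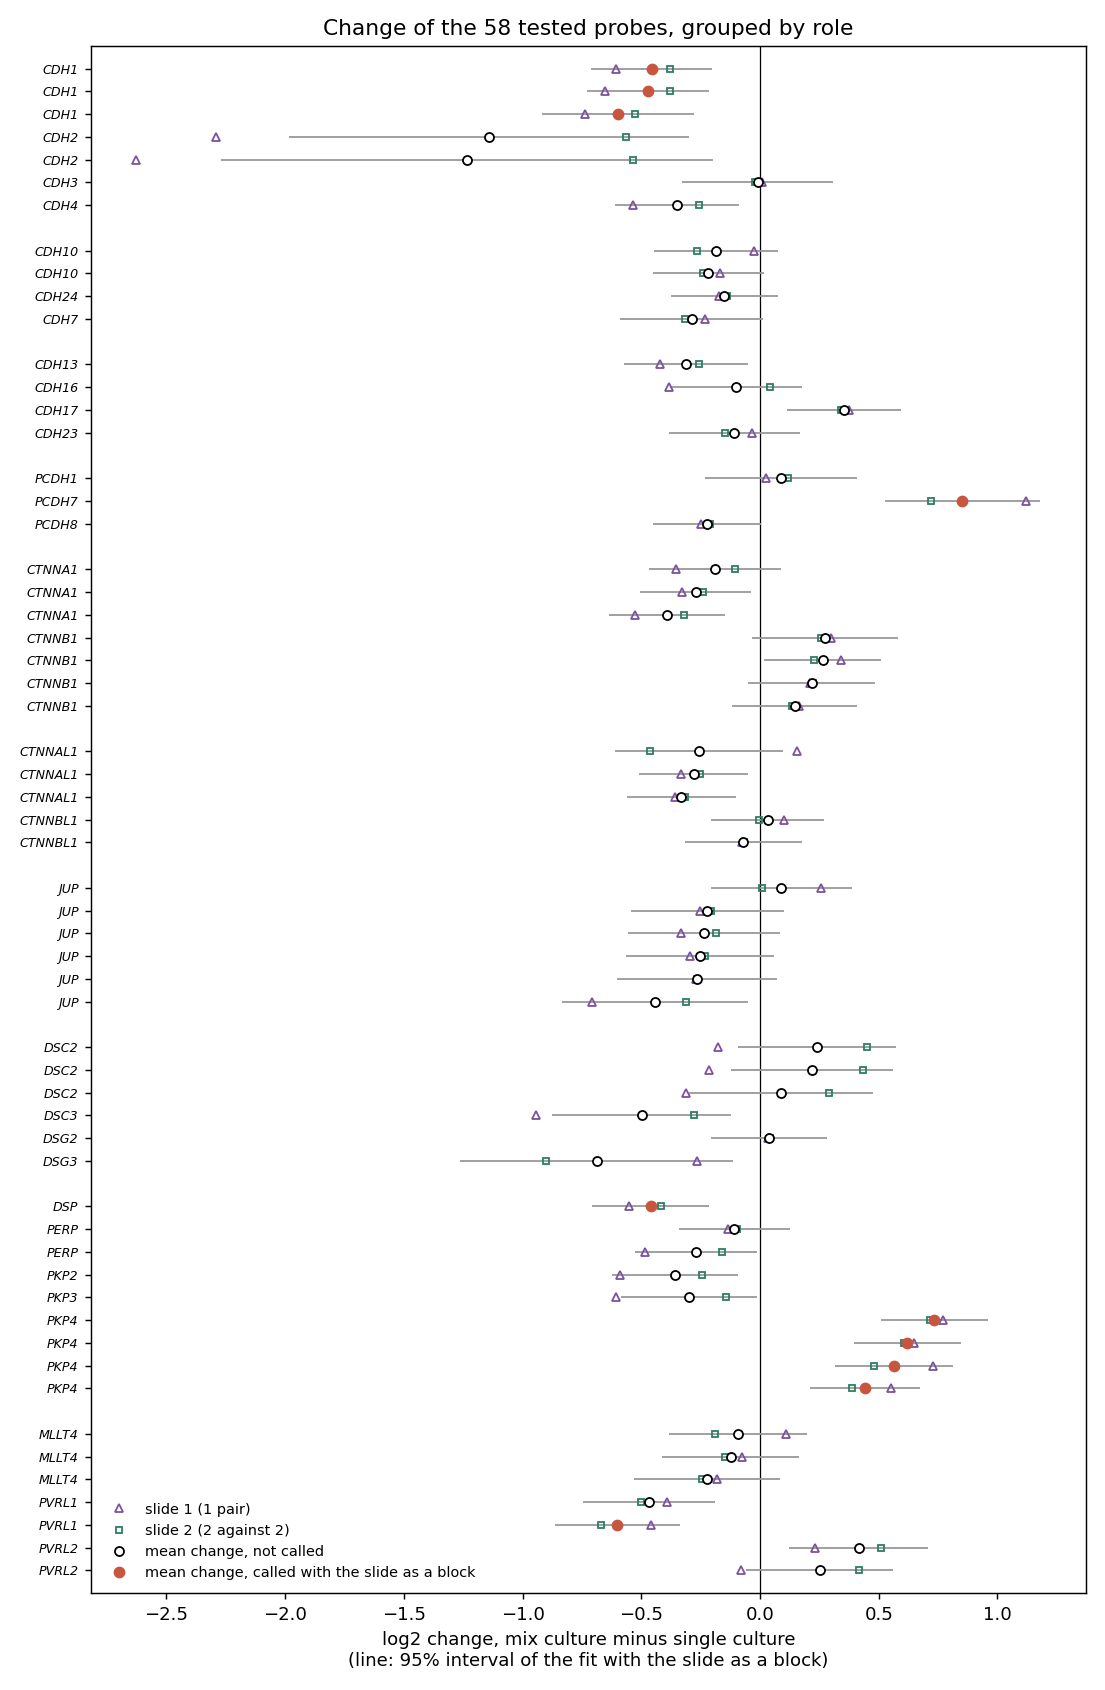
Log2 change (mix culture minus single culture, horizontal axis) of each of the 58 tested probes, grouped by role, with the mean change as a circle and the 95% interval of the slide-blocked limma fit as a line. Triangles give slide 1 and squares slide 2. Filled circles mark the 10 probes called with the slide as a block, all 4 of PKP4 and 1 of PCDH7 to the right of 0, all 3 of CDH1 and 1 each of DSP and PVRL1 to the left.

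E-cadherin, the defining cadherin of epithelial adherens junctions, is encoded by CDH1. All 3 CDH1 probes were lower in mix culture, to between 0.661 and 0.729 of the single culture level, and all 3 passed the test with the slide as a block but not without it. For A_11_P0000040845, the brightest, the normalised log2 signal was 4.11, 3.93 and 3.81 in single culture and 3.45, 3.54 and 3.44 in mix culture. Every mix culture array lay below every single culture array, and the same held for both other probes. The change was -0.47 (SE 0.11, limma adjusted p = 0.0444 with the slide block and 0.384 without). A_11_P0000018401 read 2.50, 2.0 and 1.94 in single culture and 1.90, 1.67 and 1.51 in mix culture, a change of -0.46 (SE 0.11, limma adjusted p = 0.047 with the slide block and 0.624 without). The start of these probes in the transcript, at 3705 and 3423, is far from that of A_11_P053126, at 312, whose sequence is given above. A_11_P053126 read -0.74, -1.01 and -1.04 in single culture and -1.48, -1.77 and -1.32 in mix culture, a change of -0.60 (SE 0.14, limma adjusted p = 0.0415 with the slide block and 0.336 without). The calls are close to the threshold. With the replicate number as a block the adjusted p values were 0.0761, 0.0786 and 0.0547, so none was called. On the authors' value table, limma without a block gave 0.0215, 0.0165 and 0.0218 in the same order and called all 3, and with the slide block it gave 0.0648, 0.0516 and 0.0425. With the slide block and any 1 of the 4 arrays of slide 2 left out, 2 of the 3 probes lost the call each time and A_11_P053126 kept it once, with adjusted p from 0.0243 to 0.121 for that probe.

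The summed level of the 11 epithelial markers, as multiples of the 75th percentile of each array, was 709.9 to 867 in single culture and 479 to 703 in mix culture. It was thus also lower in mix culture on every array, although CDH1 was the only gene of that list called with the slide block. The sum was weighted to its brightest genes, KRT18 and KRT19, which differed by -0.40 and -0.32. CDH1, CDH16, OCLN, CLDN7, EPCAM (by -0.02) and the undetected GRHL2 also had lower means. PAX8, CLDN1 and ESRP1 had higher means in mix culture, by 0.47, 0.35 and 0.08. The summed fibroblast list was 261 to 281 in single culture and 264 to 363 in mix culture, the endothelial list 5.51 to 14.1 and 4.67 to 14.4, and the leukocyte list 1.45 to 1.73 and 1.43 to 1.52. The fibroblast sum was weighted to VIM (45213 to 61005 intensity units), whose mean was higher in mix culture by 0.21. The means of COL1A1, COL1A2, PDGFRB and FAP, also tested, were lower by -0.46, -0.21, -0.28 and -0.005. The part of any of these shifts in the CDH1 values was not tested.

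N-cadherin, encoded by CDH2 and typical of mesenchymal and neural cells, had the 2 probes with the most negative mean changes of the 58 tested, and neither was called. A_11_P052926 read 1.36, -0.48 and 0.57 in single culture and -1.26, -0.12 and -0.86 in mix culture. The groups overlapped, because mix culture replicate 2 lay above single culture replicate 2. The change was -1.23 (95% interval -2.27 to -0.20, limma adjusted p = 0.138 with the slide block and 0.540 without), from -2.63 on slide 1 to -0.54 on slide 2. A_11_P100091 read -1.30, -2.48 and -1.79 in single culture and -3.60, -2.35 and -3.05 in mix culture, a change of -1.14 (95% interval -1.98 to -0.30, limma adjusted p = 0.103 with the slide block). On slide 1 this probe differed by -2.29 and on slide 2 by -0.56. A limma test of the difference between slides called neither probe, at adjusted p values of 0.382 and 0.365. With the slide block and 1 array of slide 2 left out, A_11_P052926 was called once of 4 times, at an adjusted p of 0.0373, and A_11_P100091 in 2 of 4, at 0.0392 or above. The third probe, A_11_P190553, was well above background on 2 of 3 single culture arrays (replicates 1 and 3) and on no mix culture array, at 12.7, 3.11 and 7.21 intensity units against 1.56, 2.93 and 1.78. By group means single culture was at least 1.58-fold higher with this probe, although the replicate 2 arrays were close, at 3.11 and 2.93. This bound has no test, because the probe did not pass the filter.

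The remaining classical cadherins gave small or dim values. P-cadherin, encoded by CDH3, lies beside CDH1 on chromosome 5 (probe start 80871359, against 80758049 for CDH1). Its probe changed by -0.01 (95% interval -0.33 to 0.31, limma adjusted p = 0.968 with the slide block), with 0.01 on slide 1 and -0.02 on slide 2. The difference between the CDH1 and CDH3 changes was not tested. R-cadherin (CDH4) was above background on 5 of 6 arrays and differed by -0.35 (limma adjusted p = 0.105 with the slide block).

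**Figure D3:**
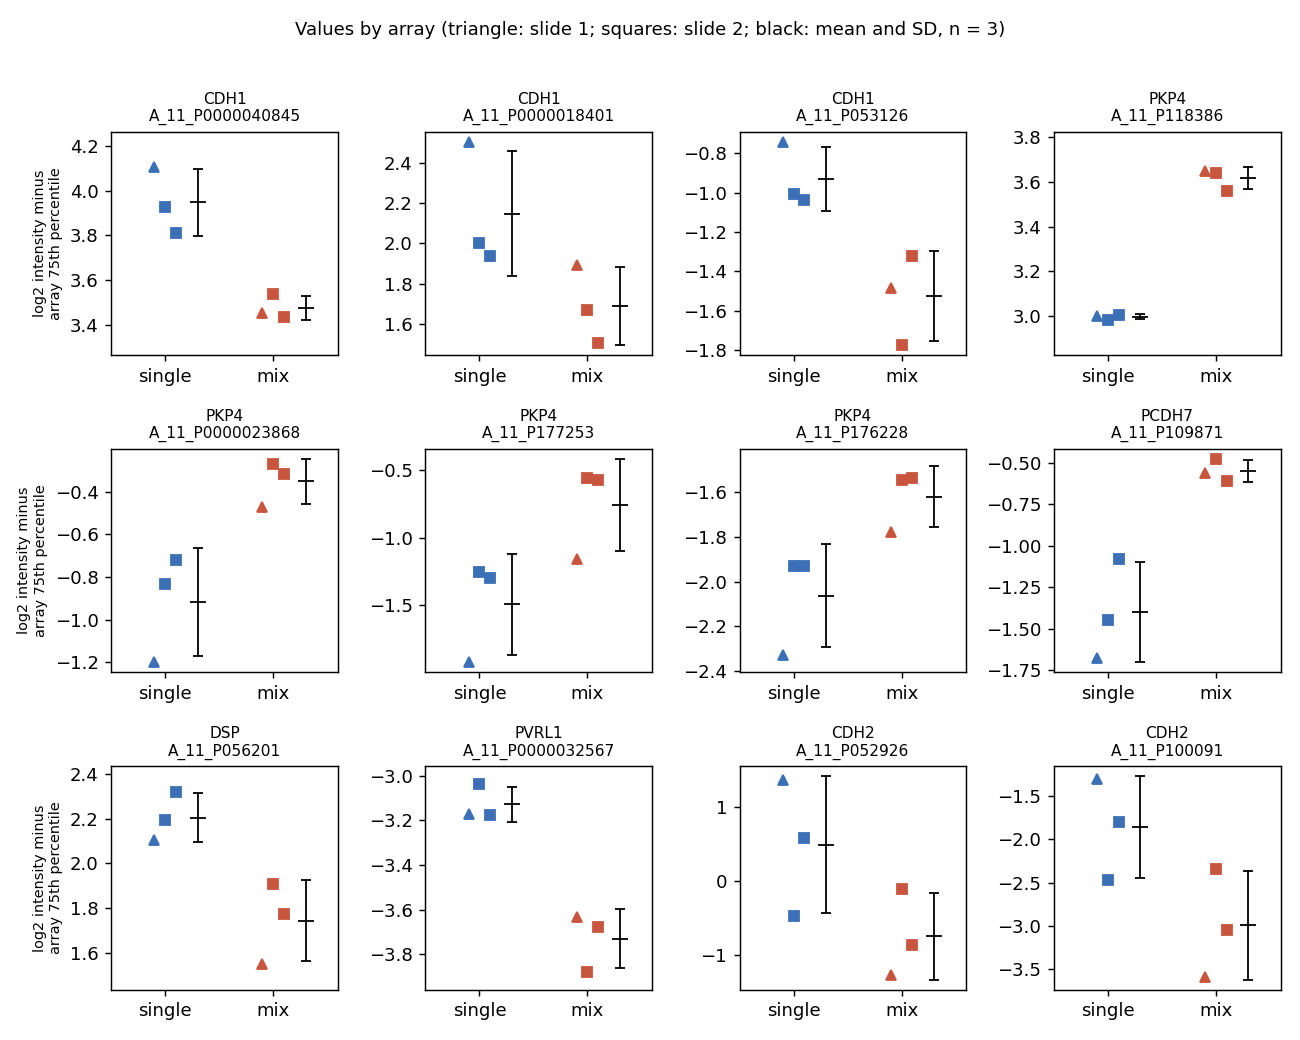
Normalised log2 signal (vertical axis, log2 intensity minus the 75th percentile of the array; the scale differs between panels) on each of the 3 single culture and 3 mix culture arrays, for the 10 called probes and 2 CDH2 probes. Triangles are slide 1, squares slide 2, and black marks the mean with its SD (n = 3). The groups are separate in all 10 called panels and overlap for CDH2.

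Among the cadherins outside the classical group, protocadherins aside, none was called. CDH16, the kidney-specific cadherin, was read by 1 detected probe at 0.48, -1.47 and -1.52 in single culture and 0.10, -1.46 and -1.44 in mix culture. Slide 1 read higher than slide 2 in both groups, and the cultures differed by -0.38 on slide 1 and 0.04 on slide 2. CDH17, the liver-intestine cadherin, was higher on every mix culture array (-0.46, -0.57 and -0.39 against -0.09, -0.12 and -0.17), a change of 0.35 (limma adjusted p = 0.085 with the slide block). CDH13, the cadherin without a cytoplasmic tail, differed by -0.31 (limma adjusted p = 0.137 with the slide block). Its second probe, A_11_P00000977, was not above background on any array. CDH23, a cadherin of hair-cell tip links, differed by -0.11 (limma adjusted p = 0.585 with the slide block). The 4 tested type II probes, of CDH7, CDH10 and CDH24, all had lower means in mix culture, by -0.29 to -0.15.

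Protocadherins lack the catenin-binding tail of the classical cadherins. PCDH7 had the largest rise among the tested junction probes, a fold of 1.81. Its probe read -1.68, -1.44 and -1.08 in single culture and -0.56, -0.48 and -0.61 in mix culture, so that every mix culture array lay above every single culture array. The change was 0.85 (SE 0.14, limma adjusted p = 0.012 with the slide block, 0.0222 with the replicate block and 0.148 without), with 1.12 on slide 1 and 0.72 on slide 2. The call held when each array of slide 2 was left out in turn with the slide block (adjusted p from 0.0157 to 0.0371). With normexp and an added offset of 50 intensity units in place of the scanner's background subtraction, the change was 0.50. Such an offset by itself shrinks the changes of dim probes. PCDH8 differed by -0.22 with separate groups (limma adjusted p = 0.200 with the slide block) and PCDH1 by 0.09 (0.714). A second PCDH8 probe, A_11_P205793, was not above background on any array.

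β-catenin transcript, from CTNNB1, had a higher mean in mix culture with all 4 probes, and none was called. A_11_P000002090 read 6.55, 6.12 and 5.93 in single culture and 6.89, 6.29 and 6.21 in mix culture. The groups overlapped over both slides and were separate within slide 2. The change was 0.26 (95% interval 0.02 to 0.51, limma adjusted p = 0.171 with the slide block and 0.889 without). The other 3 probes changed by 0.15, 0.22 and 0.27, and all 4 had the same sign on both slides. Where the introduced β-catenin Δ131 shares the sequence of a probe, its transcript and that of the dog gene cannot be told apart. CTNNA1, which encodes αE-catenin, had a lower mean with all 3 probes, by -0.39, -0.27 and -0.19. Its probe A_11_P194008 read 1.92, 2.05 and 1.98 in single culture and 1.39, 1.75 and 1.63 in mix culture, with no overlap (limma adjusted p = 0.0681 with the slide block). The opposite direction of the 2 genes was not tested.

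CTNNAL1 encodes α-catulin, a relative of α-catenin, and had 3 probes lower in mean by -0.33 to -0.26, none called. CTNNBL1, a nuclear splicing-associated protein with only a distant likeness to β-catenin, changed by 0.03 and -0.07. Plakoglobin, encoded by JUP and shared by adherens junctions and desmosomes, was lower in mean with 5 of 6 probes, by -0.44 to -0.22, and higher with the other by 0.09. None was called, the groups overlapped for all 6, and the lowest adjusted p with the slide block was 0.152. The brightest JUP probes, A_11_P170673 and A_11_P0000039362, share 52 bases and so are not independent readings. They changed by -0.24 and -0.25.

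Plakophilin 4 (p0071), encoded by PKP4, belongs to the p120-catenin family and is found at adherens junctions as well as desmosomes. Its 4 probes, of which the design places 3 at starts from 1455 to 3493 of 1 transcript and A_11_P118386 on another transcript, were all higher in mix culture, by 1.36-fold to 1.66-fold, and all were called with the slide as a block. A_11_P118386 read 3.0, 2.98 and 3.0 in single culture and 3.65, 3.64 and 3.56 in mix culture, with an SD of 0.01 and 0.05. The change was 0.62 (SE 0.10, limma adjusted p = 0.0096 with the slide block, 0.024 with the replicate block and 0.142 without). A_11_P177253 read -1.92, -1.25 and -1.30 in single culture and -1.15, -0.55 and -0.57 in mix culture. Slide 1 lay lower in both groups, and the change was 0.77 on slide 1 and 0.71 on slide 2. Over both slides it was 0.73 (SE 0.10, limma adjusted p = 0.00457 with the slide block, 0.012 with the replicate block and 0.452 without). A_11_P0000023868 read -1.20, -0.83 and -0.72 against -0.47, -0.27 and -0.32, a change of 0.56 (limma adjusted p = 0.0217 with the slide block, 0.0447 with the replicate block). A_11_P176228 read -2.33, -1.93 and -1.93 against -1.78, -1.55 and -1.54, a change of 0.44 (limma adjusted p = 0.0387 with the slide block, 0.078 with the replicate block). No probe overlapped between groups. With the slide block and each array of slide 2 left out in turn, A_11_P177253 kept its call in all 4 fits, A_11_P118386 in 3 (highest adjusted p = 0.0537), and the other two in none (up to 0.0616 and 0.12). With normexp and the same offset of 50 intensity units, the changes of the 3 dimmer probes were 0.20, 0.32 and 0.41, and that of the bright probe was 0.61.

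The desmosomal plakophilins 2 and 3 had negative mean changes, and neither was called. PKP2 read -0.54, -0.55 and -0.63 in single culture and -1.12, -0.81 and -0.86 in mix culture, with no overlap, a change of -0.36 (limma adjusted p = 0.103 with the slide block). PKP3 differed by -0.30 (0.181), with -0.60 on slide 1 and -0.14 on slide 2. The difference between these changes and those of PKP4 was not tested.

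Desmoplakin, the plaque protein that anchors keratin, was lower in mix culture. Its probe read 2.10, 2.19 and 2.32 in single culture and 1.55, 1.91 and 1.77 in mix culture, with no overlap. The change was -0.46, to 0.727 of the single culture level (SE 0.11, limma adjusted p = 0.0407 with the slide block, 0.0791 with the replicate block and 0.454 without). The call was lost when any 1 array of slide 2 was left out (adjusted p from 0.0593 to 0.147). PERP, a tetraspan protein needed for desmosomes, differed by -0.27 and -0.11 with its 2 probes, neither called. As for CDH1, the part of the lower epithelial marker sum, weighted to KRT18 and KRT19, in the DSP value was not tested.

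Desmosomal cadherins varied among themselves, and none of their 6 tested probes was called. The desmoglein 2 probe changed by 0.04, with a 95% interval of -0.21 to 0.28. The 3 DSC2 probes lay at -0.31 to -0.18 on slide 1 and 0.29 to 0.45 on slide 2, so that their means of 0.09 to 0.24 average changes of opposite sign. The limma adjusted p values of that difference between slides were 0.437 to 0.594. The genes of the desmosomal cadherins of stratified epithelia were lower in mean. DSG3 read 0.42, 0.28 and -0.25 in single culture and 0.16, -1.31 and -0.47 in mix culture, a change of -0.69 (limma adjusted p = 0.137 with the slide block). DSC3 read 1.93, 0.85 and 1.19 against 0.99, 0.77 and 0.71, a change of -0.50 (0.110). Both overlapped between groups, DSG3 through mix culture replicate 1 and DSC3 through single culture replicate 2.

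**Figure D4:**
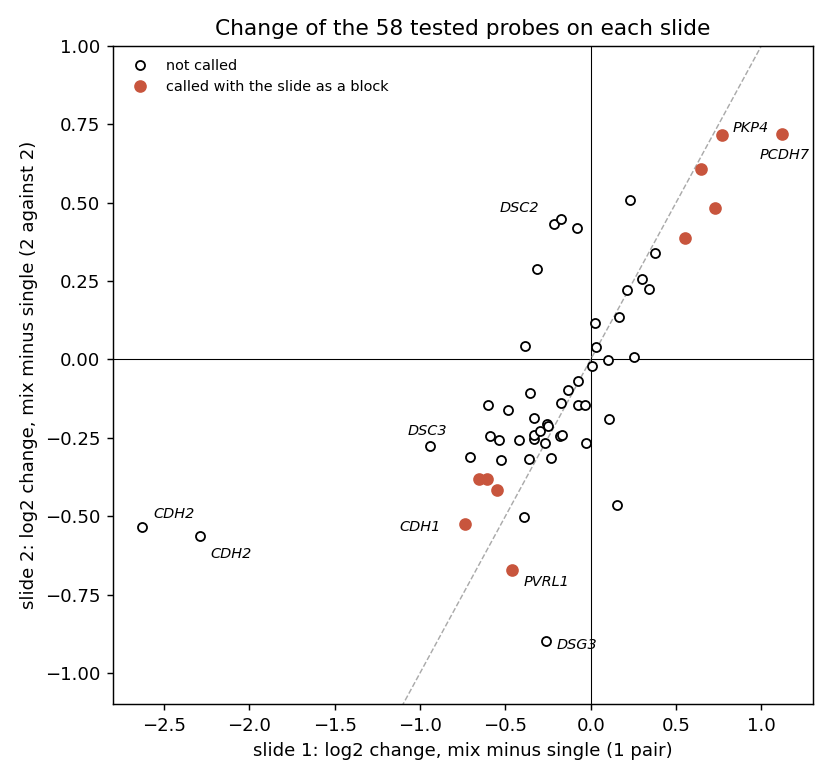
Log2 change (mix culture minus single culture) of the 58 tested probes on slide 1 (horizontal axis, 1 array against 1) and on slide 2 (vertical axis, 2 arrays against 2), with the dashed line at equal change. For 49 probes both changes have the same sign, CDH2 lies far to the left at -2.63 and -2.29 on slide 1, and the DSC2 probes lie at the upper left.

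Nectin-1, encoded by PVRL1, was lower in mix culture and dim. A_11_P0000032567 read -3.17, -3.04 and -3.18 in single culture and -3.63, -3.88 and -3.68 in mix culture, with no overlap, from 19.1 to 22.8 intensity units against 12.3 to 18.8. The change was -0.60, to 0.659 of the single culture level (SE 0.11, limma adjusted p = 0.0212 with the slide block, 0.0425 with the replicate block and 0.207 without). With normexp it was -0.15, but the added offset of 50 intensity units exceeds these signals and by itself shrinks the change. With the slide block the call was lost when any 1 array of slide 2 was left out (adjusted p from 0.0589 to 0.0823). A_11_P0000018396 differed by -0.47 (limma adjusted p = 0.059 with the slide block). The third probe, A_11_P147858, was well above background on 2 of 3 single culture arrays and on no mix culture array. It read 4.98, 6.34 and 6.58 intensity units against 4.88, 3.38 and 5.26, and the groups overlapped. By group means single culture was at least 1.27-fold higher, a bound with no test because the probe did not pass the filter. Nectin-2, encoded by PVRL2, was higher in mean by 0.42 and 0.25 with its 2 probes. The first read 1.05, 1.26 and 0.98 in single culture and 1.29, 1.71 and 1.55 in mix culture, with no overlap (limma adjusted p = 0.0916 with the slide block). Afadin, the actin adaptor of nectins, whose gene the design calls MLLT4, changed by -0.22, -0.09 and -0.12 with its 3 probes.

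Pathway lists beyond the junction proteins themselves were read by the brightest tested probe of each gene. Of 20 junction partners and anchors, 14 were tested and their median change was -0.164. None was called without a block, where 0.883% of all probes were called. With the slide block 2 fell, where 7.2% of all probes were called (3.22% lower). PPL, which encodes periplakin, a plakin of desmosomes and the cornified envelope, fell by 0.59 (limma adjusted p = 0.0126), from 1768 to 3773 intensity units in single culture to 1054 to 2923 in mix culture. ACTN1, an actin crosslinker, fell by 0.52 (limma adjusted p = 0.0375). Intensities of both genes overlapped between groups across the slides, and each gene was lower in mix culture on both slides. Of 14 regulators of cadherin genes, 6 were tested, and none was called without a block. With the slide block 2 rose, where 3.98% of all probes were called and higher. Lists of 14 and 6 tested genes are too short to set such counts against those shares. SNAI1 encodes Snail, a repressor of CDH1, and rose by 0.78 (limma adjusted p = 0.00982), from 22.5 to 28.9 intensity units to 37.4 to 52.8. ELF3, an epithelial ETS factor, rose by 1.25 (limma adjusted p = 0.00575), from 155 to 212 intensity units to 292 to 719. Of the other repressors, SNAI2 differed by -0.31 (limma adjusted p = 0.291 with the slide block), while ZEB1 and ZEB2 were above background on 1 array and on none. OVOL2, an epithelial repressor of ZEB1, differed by -0.36 (0.0845).

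In the machinery that destroys β-catenin or works with it in the nucleus, 9 of 15 listed genes were tested. None was called with or without the slide block (7.2% and 0.883% of all probes were). Their median change was -0.0729, and the largest differences were those of APC and PYGO2 (-0.16 each). Of 18 other cadherin superfamily genes, 6 were tested and none was called, with FAT2 at -0.32 and CELSR2 at -0.29.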

How the data were processed

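Cy3-labelled RNA of 6 samples was hybridised to Agilent canine arrays, 1 per sample. The authors deposited 1 scanner file per array, in which Agilent Feature Extraction (11.5.1.1 on slide 1, 12.1.1.1 on slide 2, per the file headers) gives each spot's background-subtracted intensity, not scaled between arrays. The deposited value table holds log2 values; on slide 1 they are centred per probe, and its other steps are unstated.

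For each array, log2 of the intensity minus its 75th percentile was taken, and spots of 1 probe were averaged. Groups were compared over the 26623 probes that cleared background throughout 1 group or both. The test was two-sided limma 3.58.1 in R 4.3.3 (lmFit, then eBayes), adjusted over all these probes by the method of Benjamini and Hochberg, with calls at an adjusted p under 0.05, and no block as the main design. The script was tested on simulated data. Fold bounds set the bright group's mean against the dim group's mean of, per array, either the probe's own signal or the lowest signal that cleared background, whichever was higher. For lists, the brightest tested probe stood for a gene. The text names probes called with or without the slide block, the core junction genes, the 5 largest rises and 5 largest falls, and probes detected in 1 group only; other values were added after being seen. The members and lists were chosen with earlier results of these data known. Same-numbered arrays deviated together from their group means (correlations of 0.801, 0.53 and 0.572 over all tested probes), so a block on the replicate number was fitted as a pairing. On slide 2 the crossed pairs correlated more highly (0.632 for single culture 3 with mix culture 2, 0.61 for 2 with 3; over junction probes 0.628 and 0.747, against 0.131 and 0.579 for same numbers), so these values show a shared slide and do not settle which arrays of slide 2 belong together. Alternatives covered blocks, slides, filters, background correction, normalization, the authors' table, the test of the methods and each array left out. The background correction, normexp, was run on the median spot signal with an offset of 50 intensity units, which by itself shrinks changes of dim probes. With 6 arrays, their number limits the precision.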

Additional observations from a re-analysis of the deposited data

How the results depend on the processing

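The main design called 0 junction probes. The count stayed at 0 with no filter on dim probes, with the filter for all 6 arrays, normexp, quantile normalization, median centring, the test of the methods and each array left out without a block. It was 10 with the slide block (17.2%, against 7.2% of all probes) and 5 with the replicate block (8.62%, against 5.25%). It was 3 on slide 2 alone (5.17%, against 3.69%) and 16 with the authors' table (27.6%, against 15.3%). The next settings were chosen after seeing the data. Crossing mix culture replicates 2 and 3 in the replicate block gave 6 (10.3%, against 5.43% of all probes). With the slide block, the authors' table gave 9 (15.5%, against 6.86%) and quantile normalization 9 (15.5%, against 6.93%). The slide block without 1 array of slide 2 gave 3 to 6 (5.17% to 10.3%, against 2.75% to 5.82%). Those fits without an array kept 2 to 4 of the 10 probes. The median log2 change of the junction probes was -0.203, against -0.117 without the filter and -0.0893 with normexp, -0.201 to -0.114 with 1 array left out, and, with the slide block, -0.146 and -0.155 without replicate 2 of single or of mix culture. On slide 1 alone there is 1 array a group and no test. For junction partners, 2 genes were called with the slide block, 1 with the replicate block, 1 with the crossed pairing, 1 on slide 2 alone, 3 with the authors' table, 2 with that table and the slide block, 2 with quantile normalization and the slide block, and 0 to 1 with the slide block and an array left out. For cadherin gene regulators the corresponding counts were 2, 2, 2, 2, 3, 2, 2 and 2 to 2. The shares of all probes called under these settings are those given beside the junction counts. The replicate block changed no call of the other 2 lists.

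Of 943 alternative values for 41 named probes, 855 kept the direction and the side of the threshold, and 72 kept the direction and passed it. The other 16 turned sign, and none of these was called. The main design called no named probe, so keeping the side means only staying uncalled. With every array kept, the slide block, replicate block, crossed pairing, test of the methods and changed filters leave the main mean change as it is. Those settings could not turn a sign, so their kept directions do not measure stability. Of the values that turned sign, CDH16 was 0.0415 on slide 2 alone, and DSG2 -0.00381 with normexp. With 1 array left out and no block, values ranged from -0.618 to 0.559 for CDH16, -0.0931 to 0.286 for DSC2 A_11_P0000018362, -0.518 to 0.0761 for PKP3, -0.252 to 0.0651 for MLLT4 A_11_P0000028231, -0.00775 to 0.0969 for DSG2, -0.00132 to 0.172 for JUP A_11_P00000781, and -0.351 to 0.0556 for CTNNA1 A_11_P0000081. With the slide block, the same DSC2 probe was -0.0632 and -0.0555 without replicate 2 of single or of mix culture, DSG2 -0.0232 without single culture replicate 2, and the same MLLT4 probe 0.0245 without single culture replicate 3. Signals near background, as for PVRL1, CDH2 A_11_P190553 and the dimmer PKP4 probes, limit their fold changes.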
